A study of Rattus norvegicus with 3 samples.

Results

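The genes described here build, cut and bind the extracellular matrix of the vestibular nuclei: collagens, laminins, matrix metalloproteinases (MMPs), ADAMTS proteases, integrin receptors, and 8 matrix-related genes listed one by one (Fmod, Pcolce, Aldh1a2, Dcn, Lum, Bgn, Fn1 and Sparc). Members were taken by symbol, through the RefSeq accession of a probe where it had one known to the reference. This gave 45 genes on 52 probes, of 8899 named genes on 10768 probes. They comprised 8 collagens, 1 laminin, 13 MMPs, 4 ADAMTS genes, 6 integrin alpha and 4 integrin beta subunits, the 8 listed genes, and Itgb3bp, which matches by its name only and encodes no integrin. A further 99 symbols of these families in the reference have no probe named here, among them Col4a1, Col4a2, Lama2, Lamb1 and Lamc1, so most of the family was not analysed here. Of 41012 probes, 30244 got no name by this rule, and 8830 probes carry an Ensembl accession. Whether unnamed probes cover some of the 99 symbols was not checked. Where a gene had 2 probes, the one brighter on average stands for it.

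The series follows vestibular compensation, by which balance is regained once 1 labyrinth is gone. Sprague-Dawley rats were used throughout, all adult males weighing 200 to 250 g. The 3 groups were a control labelled as sham-operated, the vestibular nuclei of the operated side 1 day after left labyrinthectomy through a postauricular approach, and those of the operated side 7 days after it. Each group had 1 array, and the nuclei of 3 rats are named per group since the RNA of 1 nucleus did not suffice, and tissue therefore seems to have been pooled for each array. The protocol text calls the control rats normal rather than sham-operated, and no source used here gives the side taken from them.

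Collagens and laminins are secreted scaffold proteins. Fibrillar collagens fill connective tissue such as the meninges and vessel walls, while laminins and network collagens form the basement membranes on which brain capillaries and the glial border rest. Small leucine-rich proteoglycans such as decorin, lumican, biglycan and fibromodulin bind collagen fibrils. MMPs and ADAMTS proteases cut these proteins, and integrins, pairs of 1 alpha and 1 beta subunit, anchor cells to them. In brain tissue much of this gene set is carried by meningeal and perivascular fibroblasts, vessel cells and microglia rather than by neurons.

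Promoter sequences are shown for 2 sets of members: MMPs that hardly gave signal, and Fmod, Pcolce and Aldh1a2, which were higher at day 7. The second set was picked from the genes listed one by one. Itgb6 and Col23a1 were also at least 2-fold higher at day 7 and had a promoter, but their windows are not printed. The windows come from RefSeq (build GRCr8), which held a promoter for 29 of the 45 members. Each shows the 100 bases before the annotated start, 5′ to 3′ on the strand of the gene. Capitals mark 4 motifs searched on both strands: the AP-1 letters TGANTCA, the TATA box letters TATAAA, the GC box letters GGGCGG and the CCAAT letters, with no overlap between motifs in the windows printed.
Mmp10 (chr8:12974607-12974706, + strand): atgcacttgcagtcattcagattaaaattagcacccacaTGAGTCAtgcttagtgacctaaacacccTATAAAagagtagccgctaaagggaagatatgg
Mmp12 (chr8:12866552-12866651, + strand): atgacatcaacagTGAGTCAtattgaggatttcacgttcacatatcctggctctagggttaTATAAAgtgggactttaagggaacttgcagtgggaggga
Mmp3 (chr8:12925181-12925280, + strand): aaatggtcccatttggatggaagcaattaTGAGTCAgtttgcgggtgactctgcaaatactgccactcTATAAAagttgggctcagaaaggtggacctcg
Mmp7 (chr8:13132943-13133042, + strand): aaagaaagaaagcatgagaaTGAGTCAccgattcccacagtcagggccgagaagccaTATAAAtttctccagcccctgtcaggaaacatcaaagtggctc
Mmp8 (chr8:13008790-13008889, + strand): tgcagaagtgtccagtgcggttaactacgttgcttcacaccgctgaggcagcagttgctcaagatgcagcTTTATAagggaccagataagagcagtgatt
Fmod (chr13:48045467-48045566, + strand): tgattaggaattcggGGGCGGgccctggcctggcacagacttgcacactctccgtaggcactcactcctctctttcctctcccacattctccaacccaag
Pcolce (chr12:24720872-24720971, + strand): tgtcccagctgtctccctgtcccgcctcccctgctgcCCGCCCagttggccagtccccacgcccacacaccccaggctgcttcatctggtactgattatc
Aldh1a2 (chr8:80758541-80758640, + strand): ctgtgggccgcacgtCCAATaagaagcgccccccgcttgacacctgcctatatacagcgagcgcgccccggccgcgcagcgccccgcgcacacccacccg
The first 5 genes encode stromelysins, macrophage elastase, matrilysin and neutrophil collagenase and lie near each other on chromosome 8. AP-1 letters were found in 4 of the 29 member promoters of 300 bases, all 4 of them in this set: at -61 in Mmp10, -87 in Mmp12, -71 in Mmp3 and -80 in Mmp7, counted from the start. Of all 33469 promoters of the same length, 7.33% held these letters. TATA box letters stood at -33, -39, -32 and -43 in the same 4 genes and, on the other strand, at -30 in Mmp8. They occurred in 8 of the 29 member promoters and in 14.2% of all promoters. In the printed bases Fmod and Pcolce held GC box letters (over 300 bases 15 of 29 members, 33.1% of all promoters). Aldh1a2 held CCAAT letters there (over 300 bases 10 of 29 members, 37.5% of all). Outside the printed bases Fmod also held CCAAT letters, at -247, and Aldh1a2 GC box letters, at 4 after the start. Of the members higher at day 7 that are not printed, Itgb6 held none of the 4 motifs and Col23a1 held GC box letters. A match of letters is not evidence of binding.

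Values are log2 intensities relative to the 75th percentile of the same array, called levels below, and differences are subtractions of such levels. With no replicate arrays there is no test, and no value has an error from animals or dissections. The errors given with differences are the scanner software's own estimates for the 2 spots. A member counts as measured in a comparison when neither array had its probe saturated or failing the scanner's call of well above background, and 2-fold is the size at which genes are counted. The scanner called 81.3% of the sham spots well above background, against 77.3% of those on the day 1 array and 76.9% on the day 7 array. The same slide carried all the arrays, and slide position cannot be told apart from group. Where a gene had 2 probes, their differences from sham lay apart by a median of 0.34 at day 1 (1124 genes). At day 7 the median was 0.41 (1106 genes). Both medians exceed the scanner error of most members. Of 72 such genes past 2-fold by the brighter probe at day 1, only 17 passed it in the same direction by the next probe. At day 7 only 26 of 89 did, so a 2-fold call on 1 probe was often not shared by another. The tissue label was checked against markers. All 9 neuron and 9 oligodendrocyte markers with a named probe were well above background on every array, and the glutamate transporter Slc17a6 of vestibular neurons was at 3.01, 3.03 and 3.19. Other hindbrain genes were lower at day 7. The patterning gene Hoxa2 had levels of 0.57 (sham) and 0.58 (day 1), the glycine transporter Slc6a5 had 0.45 and 0.33, and Esrrg had -1.82 and -3.19. On the day 7 array Slc6a5 was at -4.81, and neither Hoxa2 nor Esrrg was well above background. Each day 7 value below rests on that array, and the part of the dissection in the results was not tested. In bulk tissue, fewer cells of a type and less RNA per cell cannot be told apart.

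At day 7 more of the matrix genes were at least 2-fold higher than lower. Against sham, 8 of the 31 measured members were at least 2-fold higher (25.8%) and 1 was lower (3.23%), beside 11.1% and 5.73% of 6261 measured genes. At day 1 against sham, 5 of 31 were higher (16.1%) and 0 lower, beside 8.26% and 4.37% of 6292 genes, and 16 of the 31 lay above 0. Between the days, 5 of 31 were higher at day 7 and 2 lower, beside 6.56% and 5.32% of 6142 genes. The median difference of the members was 0.01 at day 1, 0.36 at day 7 and 0.23 between the days, while that of all measured genes was 0.0011, 0.05 and 0.04. The split of calls moved with the scaling. At day 1 it was 3 higher and 2 lower with quantile normalization, 3 and 1 with cyclic loess, 4 and 2 with median scaling, and 3 and 3 without scaling, which shifted the median of all genes to -0.12. Between the days it was 6 and 1 without scaling, where the median of all genes was 0.15. Calls that stayed past 2-fold under all 6 other scalings were Col2a1 and Itgb3 at day 1, and Fmod, Itgb6, Aldh1a2, Itgb3, Col23a1 and Col4a4 at day 7. The day 1 and day 7 comparisons share the sham array, so they are not independent of each other.

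**Figure D1:**
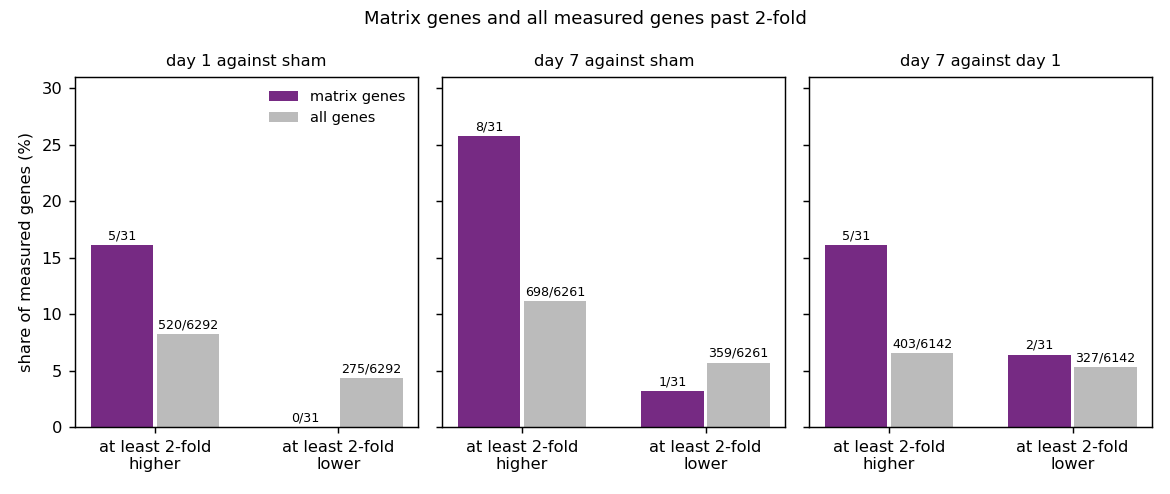
Share of measured matrix genes (purple) and of all measured genes (grey) at least 2-fold higher or lower, in percent, for the 3 comparisons, with the counts above the bars. At day 7 against sham 8 of 31 matrix genes were higher and 1 was lower, beside 698 and 359 of 6261 genes.

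Most of these differences came from dim probes. Among members below the median well-above-background probe on both arrays, 7 of 18 were higher at day 7 and 1 was lower, beside 17.4% and 5.78% of 2888 genes as dim. Among brighter probes, 1 of 13 members was higher and 0 lower at day 7, beside 5.78% and 5.69% of 3373 genes, and the single gene was Fmod. A probe counts as brighter when it exceeds that median on either array, so a difference can itself place a gene there, and Fmod did so only through its day 7 level. At day 1 all 5 higher members were dim (5 of 19, beside 11.7% of 2978 genes), while 0 of 19 were lower (5.34%). None of 12 brighter members passed 2-fold at day 1, beside 5.22% of genes higher and 3.5% lower. Between the days 2 of 13 brighter members were higher (4.57% of genes) and 0 lower (5%). These were Fmod and Mmp14. Of the 2 arrays compared, both exceeded the median on the day 7 array only, but Mmp14 also exceeded that of the sham array (-0.98 against -1.64). In the same comparison 3 of 18 dim ones were higher (8.82%) and 2 lower (5.69%). Of the 31 members measured on all 3 arrays, 16 had their highest level on the day 7 array, 7 on the day 1 array and 8 on the sham array. Among all 6047 such genes, 38.8% were highest on day 7, 27.1% on day 1 and 34.1% on sham. With only 5 to 8 members past 2-fold, these shares move with single genes. The 8 listed genes may have been proposed with results of these arrays in view. Without them 5 of 24 members were at least 2-fold higher at day 7 and 1 lower, beside 11.1% and 5.74% of genes. At day 1, 4 of 24 were higher and 0 lower, beside 8.26% and 4.38%. The higher members were all on dim probes, where the shares of all genes higher were 17.4% at day 7 and 11.7% at day 1.

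**Figure D2:**
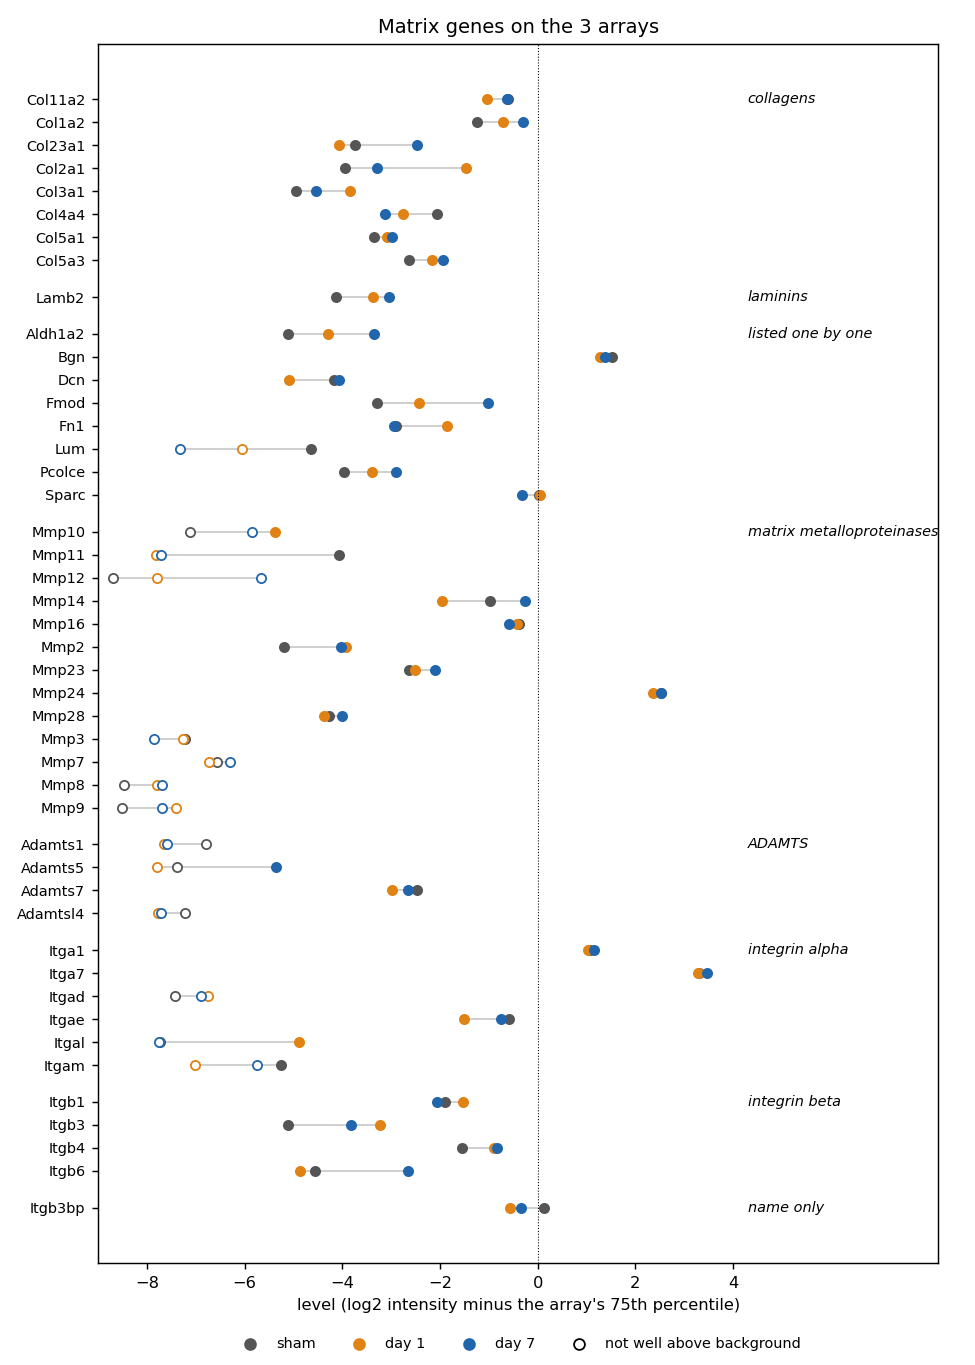
Level of all 45 members on each array (log2 intensity minus the array's 75th percentile), by family, with open circles where the probe was not well above background. Itga7, Mmp24, Bgn and Itga1 stayed above 0 on all 3 arrays, whereas 5 MMPs were not well above background on any.

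Collagen genes were mostly within 2-fold, with Col2a1 and Col3a1 at least 2-fold higher at day 1, and Col23a1 higher and Col4a4 lower at day 7. The median of the 8 was 0.35 at day 1 and 0.53 at day 7. Col1a2, a chain of the main fibrillar collagen type I, had levels of -1.25 (sham), -0.70 (day 1) and -0.29 (day 7). The day 7 array was thus the highest, by 0.96 ± 0.20, and a dimmer second probe gave -4.92, -4.58 and -3.73 and a difference of 1.19 ± 0.24. Both probes of Col1a2 placed the arrays in the same order. Col3a1, the collagen III chain that accompanies type I in soft tissue, was highest at day 1, with levels of -4.95, -3.83 and -4.54. It was 2.16-fold higher at day 1 (1.11 ± 0.25) and 0.40 ± 0.28 higher at day 7. Among the type V collagens, which regulate fibril width, Col5a1 was at -3.34, -3.09 and -2.98, and Col5a3 at -2.63, -2.17 and -1.94. Neither passed 2-fold at either day.

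Col2a1, the fibrillar collagen of cartilage, showed the largest collagen difference. Its levels were -3.95 in sham, -1.46 at day 1 and -3.29 at day 7, so day 1 alone stood apart. It was 5.63-fold higher at day 1 than in sham (2.49 ± 0.22) and 3.56-fold higher than at day 7, while a second probe was not well above background on any array. Col11a2, another cartilage fibril chain, was at -0.62, -1.03 and -0.63 and stayed within 2-fold. Of 5 measured cartilage and bone markers, 1 was at least 2-fold higher at day 1, Cnmd (1.04), and 1 at day 7, Ibsp (1.16). The summed linear level of the 8 markers of that list with a named probe, in units of the array's 75th percentile, was 0.69 (sham), 0.84 (day 1) and 1.08 (day 7). Their part in the Col2a1 difference was not tested. Col23a1, a membrane-spanning collagen, had levels of -3.74, -4.08 and -2.47 and was 2.41-fold higher at day 7 (1.27 ± 0.21). Its second probe gave -4.36, -3.76 and -3.97, which puts day 1 and not day 7 highest. Col4a4, a chain of the basement membrane collagen IV, was at -2.06, -2.75 and -3.12, highest in sham. At day 7 it was 2.08-fold lower than sham (-1.06 ± 0.21), the single measured member past 2-fold in that direction in either comparison with sham.

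Lamb2, the only laminin chain with a named probe, forms part of the basement membranes of vessels and of the glial border. Its levels were -4.12 (sham), -3.38 (day 1) and -3.04 (day 7). It was 1.68-fold higher at day 1 (0.75 ± 0.23) and 2.11-fold higher at day 7 (1.08 ± 0.22). The value at day 7 lies close to 2-fold and was between 0.88 and 1.13 under 6 other scalings.

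Among the genes listed one by one, 3 of 7 measured were at least 2-fold higher at day 7 and none was lower, beside 11.1% and 5.73% of all measured genes. All 3 may owe their place in the list to earlier results of these arrays, so the count supports nothing. Fmod, which encodes the fibril-binding proteoglycan fibromodulin, had levels of -3.30, -2.42 and -1.03. It stood 1.83-fold above sham at day 1 (0.87 ± 0.21) and 4.82-fold at day 7 (2.27 ± 0.21), the largest day 7 difference of any measured member. Aldh1a2, a retinoic acid-synthesizing enzyme found in meningeal cells, was at -5.10, -4.30 and -3.34 and was 3.38-fold higher at day 7 (1.76 ± 0.26). Pcolce, an enhancer of the enzyme that trims procollagen, was at -3.97, -3.40 and -2.90 and was 2.1-fold higher at day 7 (1.07 ± 0.22). All 3 genes were lowest in sham and highest at day 7.

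The other proteoglycans and glycoproteins did not follow that order. Dcn, decorin, was lowest at day 1, with levels of -4.18, -5.08 and -4.07. Its differences were -0.91 ± 0.31 at day 1 and 0.11 ± 0.25 at day 7. Lum, lumican, was well above background in sham (-4.64) and on neither array after surgery, which bounds it at least 1.93-fold lower at day 1 and at least 1.87-fold lower at day 7. These bounds set the sham level against the lowest signal that counted as well above background on the other array. That lowest signal differed by array, at a level of -6.41 in sham, -5.59 at day 1 and -5.55 at day 7. Later bounds were built in the same way, and none takes in the scanner error. Bgn, biglycan, was bright and even at 1.53, 1.27 and 1.37. Sparc, a collagen-binding protein of glia and vessels, was at 0.03, 0.04 and -0.32, within 2-fold throughout. Fn1, fibronectin, had levels of -2.90, -1.85 and -2.94, so day 1 stood above both other arrays. It was 2.07-fold higher at day 1 than in sham (1.05 ± 0.21), but a second probe on 10 spots gave 0.29 ± 0.32 and was not well above background at day 7.

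**Figure D3:**
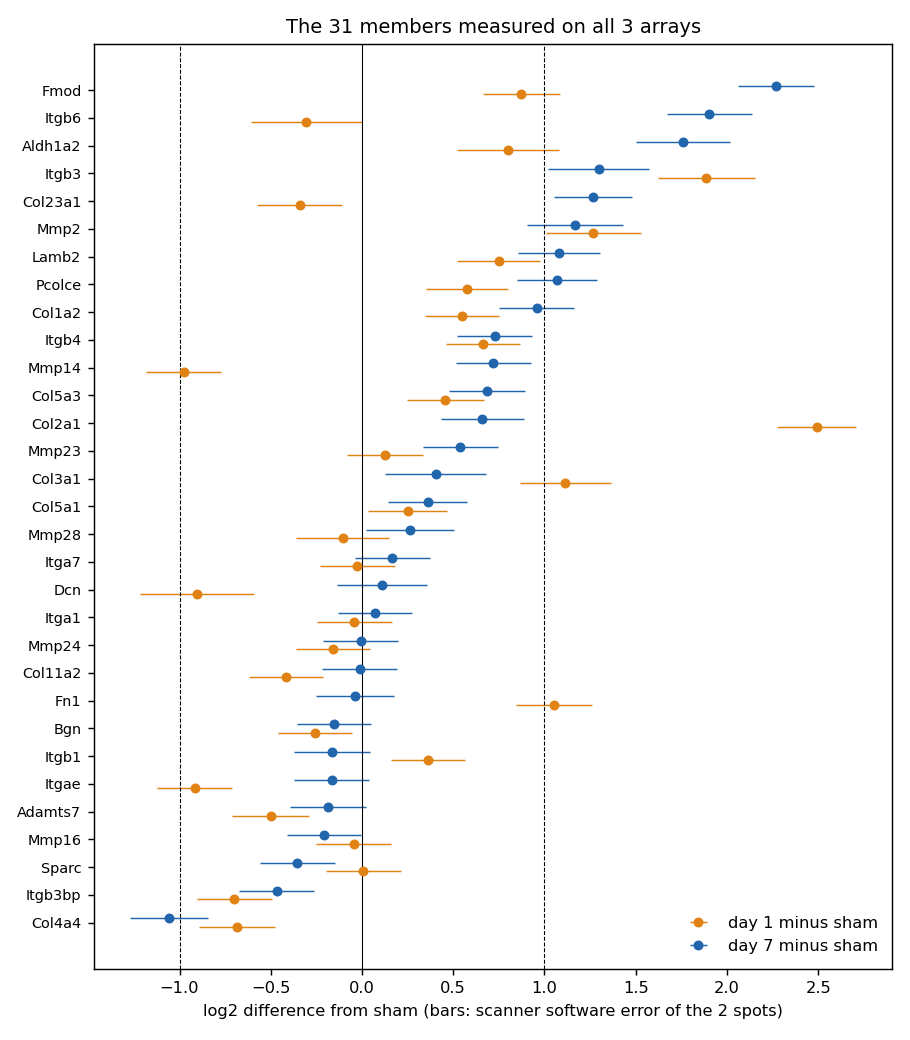
Log2 difference from sham at day 1 (orange) and day 7 (blue) for the 31 members measured on all 3 arrays, with bars for the scanner software's error of the 2 spots and dashed lines at 2-fold. Fmod, Itgb6 and Aldh1a2 had the largest day 7 differences (2.27, 1.90 and 1.76) and Col2a1 the largest at day 1 (2.49).

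Of the 13 MMP genes, 6 were measured on all arrays, and 1 of these, Mmp2, passed 2-fold against sham. Mmp2, gelatinase A, which cuts basement membrane collagen, had levels of -5.20 (sham), -3.93 (day 1) and -4.03 (day 7). It was 2.41-fold higher at day 1 (1.27 ± 0.26) and 2.25-fold higher at day 7 (1.17 ± 0.26), so both arrays after surgery lay above sham. Mmp14, the membrane protease that activates the Mmp2 protein, was lowest at day 1, with levels of -0.98, -1.95 and -0.26. It was -0.98 ± 0.21 below sham at day 1, 0.72 ± 0.20 above it at day 7, and 3.24-fold higher at day 7 than at day 1 (1.70 ± 0.21). The membrane-bound Mmp16 (-0.38, -0.43 and -0.59) and the neuronal Mmp24 (2.53, 2.37 and 2.52) hardly moved. Mmp23 was at -2.63, -2.50 and -2.09, and the epidermal MMP Mmp28 at -4.28, -4.38 and -4.01. None of these 4 genes passed 2-fold in any comparison.

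The inducible and leukocyte MMPs, among them those whose promoters are printed above, stayed dim. Mmp3, Mmp7, Mmp8, Mmp9 and Mmp12 were not well above background on any of the 3 arrays, so no fold is given for them. Mmp9, gelatinase B, whose promoter is not printed, was read on 10 spots per array. Mmp10, stromelysin 2, was well above background at day 1 only, at -5.38, with a bound of at least 2.04-fold above sham. The scanner error of that difference was 0.57. At day 7 Mmp10 was at -5.85, within the scanner error of its day 1 level (-0.47 ± 0.51). Mmp11, stromelysin 3, was well above background in sham only, at -4.07, and was at least 2.87-fold lower at day 1 and at least 2.78-fold lower at day 7. For the 5 MMPs not well above background on any array, a change below that signal was not detectable.

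ADAMTS proteases, which cut proteoglycans and process procollagen, gave little to compare. Adamts7 was measured on all arrays, at -2.47, -2.97 and -2.66. Adamts5, an aggrecan-cutting protease, was well above background at day 7 only (-5.36), with a bound of at least 2.07-fold above sham. The scanner error of that difference was 0.69. Adamts1 and Adamtsl4, the latter an ADAMTS-like gene that encodes no protease, were not well above background on any array.

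The median difference of the beta integrin subunits was 0.51 at day 1 and 1.01 at day 7, and that of the 3 measured alpha subunits -0.04 and 0.07. Of 4 beta subunits, 1 was at least 2-fold higher at day 1 and 2 at day 7, beside 8.26% and 11.1% of all measured genes. Those past 2-fold, Itgb3 and Itgb6, were dim, and among dim probes the shares were 11.7% and 17.4%. With so few subunits, these medians and counts move with single genes. Itgb3, the vitronectin and fibrinogen receptor subunit of platelets, vessel cells and microglia, had levels of -5.12, -3.23 and -3.82. It was 3.7-fold higher at day 1 (1.89 ± 0.27) and 2.46-fold at day 7 (1.30 ± 0.28). Itgb6, the epithelial subunit that activates TGF-beta, was at -4.55, -4.86 and -2.65 and was 3.74-fold higher at day 7 (1.90 ± 0.23) but not at day 1 (-0.30 ± 0.30). Itgb4, a laminin receptor subunit, was at -1.55, -0.89 and -0.82, with 0.66 ± 0.20 at day 1 and 0.73 ± 0.20 at day 7. Itgb1, the partner of most matrix-binding alpha subunits, was measured on 10 spots at -1.90, -1.53 and -2.06. Its differences of 0.36 ± 0.21 and -0.16 ± 0.21 stayed within 2-fold, and the SD over the 10 spots of 1 array was 0.11, 0.08 and 0.14.

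The alpha subunits measured on all arrays stayed within 2-fold. Itga1, a collagen receptor subunit, was at 1.08, 1.04 and 1.15, and Itga7, a laminin receptor subunit, at 3.31, 3.28 and 3.47. A dim second probe of Itga7 gave -6.04, -5.06 and -4.76 and a day 7 difference of 1.28 ± 0.39, where the bright probe gave 0.17 ± 0.20. Itgae, a subunit of tissue-resident T cells, was lowest at day 1 (-0.58, -1.50 and -0.75). Itgal, the leukocyte subunit of LFA-1, was well above background at day 1 only (-4.88) and was at least 2.88-fold higher than in sham. Itgam, the CD11b subunit of microglia and neutrophils, was well above background in sham only (-5.25), with bounds of 1.26-fold lower at day 1 and 1.22-fold lower at day 7. The scanner errors of these differences, 0.91 and 0.47, exceed the bounds in log2 (0.33 and 0.29), so a lower level is not shown. Itgad, a related leukocyte subunit, was not well above background on any array. Itgb3bp, the name-only match, was at 0.13, -0.57 and -0.34.

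Leukocyte markers were read beside the leukocyte integrins. Of 8 blood leukocyte and platelet markers with a named probe, 6 were well above background in sham, 4 at day 1 and 7 at day 7, and their summed level was 0.49, 0.41 and 0.60. The median of the measured ones was -0.09 at day 1 and -0.02 at day 7, where the neutrophil gene S100a8 was at 1.24. S100a9 was well above background at day 7 only, at -3.83, so it enters neither median. S100a8 and Cd3g were well above background in sham and at day 7 but not at day 1. The 7 microglia and macrophage markers measured at day 1 had a median of -0.64 with 1 at least 2-fold lower, Aif1 (-1.08), and the 9 measured at day 7 had a median of 0.18 with 2 higher, C1qc (3.31) and Tyrobp (1.01). Cx3cr1 enters neither median, since it was not well above background in sham but was at day 1 (-4.49) and day 7 (-4.80). Cd68 was well above background in sham and at day 7 but not at day 1. The summed level of the microglia and macrophage markers was 11.3 (sham), 7.22 (day 1) and 14.9 (day 7), but the day 1 sum lacks P2ry12, which had no usable spot there and was at 0.07 in sham and 0.20 at day 7. The part of these leukocyte and microglia markers in the integrin values was not tested.

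Genes that act with the members came from lists chosen for their function. Their counts stand beside shares over all measured genes of 8.26% upward and 4.37% downward on the first day, 11.1% and 5.73% on the seventh, and each list holds few genes. Of 4 inhibitors of matrix proteases with a named probe, Timp1, a secreted MMP inhibitor, was higher at day 1 (1.04), and A2m, a broad protease inhibitor of plasma and reactive glia, at day 7 (1.37). Among 11 measured basement membrane and elastic fibre partners, 2 passed 2-fold upward at day 1 and none downward, against 3 upward and 1 downward at day 7, with medians of 0.44 and 0.52. Fbn1, the microfibril protein fibrillin, was at 1.10 and 1.24, and Fbln5, an elastic fibre protein, was at 1.71 at day 1. At day 7 Efemp2, which guides elastic fibre assembly, was at 1.45 and Fbn2 at 1.01, while Ecm1 was at -1.12. Enzymes of collagen hydroxylation, folding and crosslinking hardly moved, with none of 12 past 2-fold at day 1 and only Fkbp10, a collagen-folding isomerase, past it at day 7 (1.31). Other small leucine-rich and matricellular genes included 2 of 9 past 2-fold at day 1, both upward, and 5 of 8 at day 7, of which 3 were upward. Aspn, asporin, was at 1.26 and 1.63, and Ccn3 at 1.28 and 1.5, whereas the bone and macrophage protein Spp1 was at -1.67 at day 7.

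Upstream signals and downstream partners were mixed, and their counts stand beside the same shares (8.26% and 4.37% at day 1, 11.1% and 5.73% at day 7). Of 12 measured TGF-beta genes, 3 passed 2-fold at day 1, of which 2 were upward, and 1 passed it downward at day 7, with medians of -0.17 and -0.09. The coreceptor endoglin (Eng) was at 1.74 and the receptor Tgfbr1 at -1.12 at day 1, and the coreceptor Tgfbr3 was at 1.29 at day 1 and -4.07 at day 7. Of 9 other matrix proteases and inhibitors measured at day 1, 2 were lower, the heparan-cutting Hpse (-1.67) and Adam9 (-1.09). Of 13 at day 7, Serpinf1 was higher (1.15) and the oligodendrocyte protease Klk6 lower (-1.16). Integrin signalling partners had 4 of 12 past 2-fold at day 1, of which 3 were downward, and 3 of 12 at day 7, all upward. The tetraspanin Cd151 was at -2.33 and 1.75, the adhesion scaffold Bcar1 was at 2.47 at day 7, and the kinase Ptk2b was at -1.14 and 1.07.

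**Figure D4:**
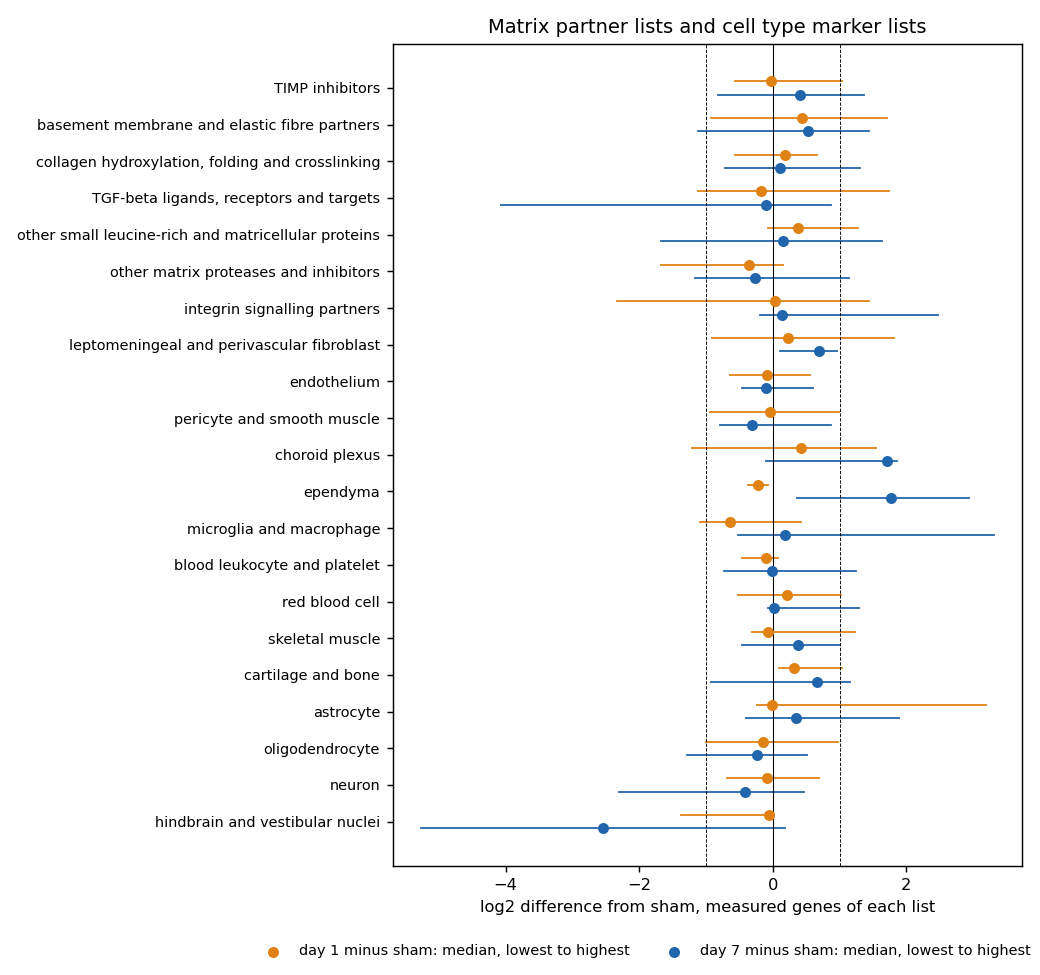
Median (point) and lowest to highest (line) log2 difference from sham of the measured genes of 7 lists of matrix partners and 14 lists of cell type markers, at day 1 (orange) and day 7 (blue), with dashed lines at 2-fold. The measured leptomeningeal and perivascular fibroblast markers all lay above 0 at day 7, from 0.11 to 0.97, beside 3337 of 6261 measured genes above 0.

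Markers of the cells that carry much of the matrix were read beside it. All 7 measured leptomeningeal and perivascular fibroblast markers were above sham at day 7, with a median of 0.69, a range of 0.11 to 0.97 and none past 2-fold. They included Igf2 (0.68), Ptgds (0.69) and the transporters Slc6a13 (0.97) and Slc22a6 (0.81). Of all measured genes, 3337 of 6261 were above sham at day 7, with a median of 0.05. Among genes on dim probes 1865 of 2888 were, with a median of 0.29. Slc6a13, Slc22a6, Serping1 and Crabp2 were on dim probes. At day 1 the median of the fibroblast markers was 0.23, with 4 of 7 above sham and Slc22a6 at 1.81. The summed level of the 9 such markers with a named probe was 8.19 (sham), 8.0 (day 1) and 10.6 (day 7), and Slc22a2 and Igfbp2 were not well above background on any array. Their part in the higher matrix genes was not tested. Endothelial markers showed no such shift, with a median of -0.09 over 11 genes at day 1 and -0.10 over 10 at day 7, none past 2-fold, and a summed level of 19.2, 20.2 and 20.1. Pericyte and smooth muscle markers had medians of -0.04 and -0.32 over 9 genes, none past 2-fold, although Pdgfrb was at 1.00 (day 1) and 0.87 (day 7). Their summed level was 20.7, 21.7 and 8.42. Notch3, at 3.8, 3.91 and 1.46, made up most of that sum in sham and at day 1 but not at day 7, and its spot was saturated on at least 1 array, so its difference was not measured.

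Markers of the ventricle wall were read as well. Of 9 choroid plexus markers with a named probe, 4 were well above background on each array and their summed level was 0.73, 0.60 and 1.30. At day 1 the potassium channel Kcnj13 was at 1.55 and the thyroxine carrier Ttr at -1.20. At day 7 the epithelial markers Sostdc1 (1.86) and Folr1 (1.72) were higher, of 3 measured, and Ttr was at -0.10. Of 3 ependymal markers, Foxj1, the regulator of motile cilia, was at 1.77 and Rsph1 at 2.94 at day 7, while Rarres2 was at 0.36, with a summed list level of 0.36, 0.32 and 1.06. The sham level of Rsph1 (-6.32) lay close to the lowest signal well above background on that array (-6.41). At day 1 Rsph1 was not well above background. The part of these markers in the matrix values was not tested.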

How the data were processed

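RNA of 3 groups was measured on 1 array each, in 1 colour (Cy3). Per the file headers, the authors read the arrays with Agilent Feature Extraction 10.7.3.1, and the array design used build rn4. The deposited files hold the processed intensity of every spot, linear, background-subtracted and not scaled between arrays, beside flags for background, saturation and outliers. The authors' series table holds 34687 of the probes, with values equal to the processed intensity within 0.1% for 99.3 to 99.4%.

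Here log2 intensity minus the array's 75th percentile of non-control spots was used. Spots with an outlier flag (163 to 224 per array) were dropped, and replicate spots were averaged as log2 values. Probes were named by RefSeq accession through a GRCr8 table (10768 of 41012 probes), and no column of the files used here gives gene names. Of the members, 43 lie on 1 spot and 2 on 10, and none was saturated. Genes were counted at 2-fold with no test. Counting was tested on simulated data. Named were members at least 2-fold different or with a bound of at least 2-fold, the brightest 3 per family, the 8 listed genes, members whose probes disagree, 10 preset genes, and up to 4 genes past 2-fold per list. Other members are given so that all 45 are accounted for, and those genes were chosen after their values were seen. Members and lists (7 of partners, 14 of markers) were chosen with earlier results of these data known. Normexp used the spot median because the files used here hold no spot mean. Analyses used Python 3.11.15, R 4.3.3 and limma 3.58.1.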

Additional observations from a re-analysis of the deposited data

Results flagged for a closer look

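Some members (5) lay on opposite sides of sham at the 2 days and differed by at least 2-fold between them. The share of all measured genes that did both was not computed, so the count is no result about the members. Whatever their side of sham, 6.56% of 6142 genes were at least 2-fold higher between the days and 5.32% lower. Mmp14 was at -0.98 at day 1 and 0.72 at day 7, a difference of 1.70 between the days. Itgb6 was at -0.30 and 1.90 (2.21 between the days), and Dcn at -0.91 and 0.11 (1.01). Col23a1 was at -0.34 and 1.27 (1.61), and Fn1 at 1.05 and -0.04 (-1.09). Under 6 other scalings the side of sham was not fixed for Dcn at day 7 (-0.10 to 0.20), Fn1 at day 7 (-0.18 to 0.05) and Itgb6 at day 1 (-0.47 to 0.01). Between the days Dcn passed 2-fold under 2 of the 6 scalings and Fn1 under 4. The second probe of Col23a1 lay above sham at both days (0.60 and 0.39). With 1 array per group these differences were not tested, and both days are set against the same sham array.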

How the results depend on the processing

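Each result was recomputed under 12 alternatives. Every call against sham kept its sign under 6 other scalings, but only 2 of 5 calls at day 1 and 6 of 9 at day 7 stayed past 2-fold under all of them (5 of 7 between the days). At day 1 the main counts were 5 higher and 0 lower. They were 3 and 2 with quantile normalization, 3 and 1 with cyclic loess, 4 and 2 with median scaling, and 3 and 3 in the unscaled series table, where the median was -0.11. Normexp gave 3 higher at day 1 and 1 lower between the days. At day 7 quantile normalization and cyclic loess gave 5 higher each, with medians of 0.21 and 0.22, and median scaling a median of 0.23. Without scaling, 1 was lower between the days and the median was 0.34. With no filter on dim probes, counts were 8 higher and 3 lower at day 1, 3 lower at day 7, and 8 higher and 4 lower between the days, where the median was 0.12. Brighter probes alone gave 0 higher and a median of -0.10 at day 1, 1 higher, 0 lower and a median of -0.0073 at day 7, and 2 higher and 0 lower between the days. The next brightest probe, measured for 4 or 5 members, gave 0 higher at day 1 (median 0.34), 2 higher and 0 lower at day 7 (median 0.79), and 0 in either direction between the days. Col23a1 then reversed between the days to -0.21. The mean of measured probes gave a day 1 median of 0.13. Without the 8 listed genes, an alternative chosen after seeing the data, 5 were higher at day 7, and 3 higher and 1 lower between the days. Where fewer members enter, the counts fall with them; otherwise the cause was not tested. Keeping saturated or outlier spots, or taking the percentile over detected probes, moved no count by over 1.5 times. Naming by RefSeq accession only equals the main setting and was not run apart. No paired analysis was possible because each group has 1 array.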

Other observations

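The remaining marker lists held few genes past 2-fold. Astrocyte markers had medians of -0.01 at day 1 and 0.34 at day 7 over 7 genes, with S100b at 3.19 and 1.89 and the water channel Aqp4 at 1.25 at day 7. Oligodendrocyte markers had medians of -0.15 and -0.24 over 9, with Ermn at -1.01 at day 1 and Mbp at -1.29 at day 7, and neuron markers -0.08 and -0.41 over 8, with Nefh (-2.30), Nefl (-1.61) and Nefm (-1.17) lower at day 7. Red blood cell markers had medians of 0.21 and 0.02 over 3, with Alas2 at 1.02 and 1.29. Skeletal muscle markers had medians of -0.07 and 0.39 over 6, with Tnni2 at 1.23 and 1.01. The hindbrain list is described with the tissue check: its 4 named genes had a median of -0.05 at day 1, and 2 were measured at day 7.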
